A study of Mus musculus with 12 samples.

Results

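The squamous epithelium identity genes are 10 genes that mark and build stratified squamous epithelium, here read for DNA methylation in mouse oral tissue. They were taken by name from a fixed list, Trp63, Krt5, Krt14, Krt15, Sfn, Klf5, Ovol1, Grhl3, Sox2 and Perp, and make up 10 of the 22380 protein-coding genes in GENCODE vM1 on the mm9 assembly. The rule uses no methylation value, but the list was drawn up with earlier results of these data known. From 2000 bp before the start to the end of each gene the reference holds 3754 CpGs, of which 1218 had at least 1 read in at least 1 sample, out of 4446809 CpGs read in the whole series. A promoter is 1000 bp on either side of the start of the gene record, and a body is the rest of the gene up to its end. The files hold methylation only, so whether the 10 genes were expressed in these samples was not measured.

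DNA methylation was measured by enhanced reduced representation bisulfite sequencing (ERRBS) in 12 samples of oral soft tissue, in which the buccal mucosa, the floor of the mouth and the tissue on the hard palate were pooled. The mice were B6C3F1/J females, a hybrid strain, given as 8 weeks old and held in quarantine before treatment began. Each of 4 groups had 3 samples. DMSO mice received the vehicle. DBP mice received dibenzo[def,p]chrysene, a polycyclic aromatic hydrocarbon, in the mouth, 24 nmol on 3 occasions a week over 5 weeks, with tissue taken 48 h after the final application. DBP+agent mice received DBP with a preventive agent left unnamed in the labels, and DBP+BR mice received DBP with BR extract, an abbreviation the labels do not spell out. The doses of both additions are not in the labels, and neither is the number of mice behind a sample, so the edgeR and permutation p-values measure the spread between samples, which may be partly technical. The logistic regression used at single CpGs takes reads as independent and does not measure that spread. The tissue is bulk, so fewer epithelial cells and another methylation level per epithelial cell cannot be told apart.

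Depth differed by group. CpG calls numbered 3287367 to 7974299 per sample in DMSO and DBP, and 16908728 to 78889043 in DBP+agent and DBP+BR, with the highest in DBP+BR 1. Reads on the 10 genes ran from 804 in the shallowest DMSO sample to 32303 in DBP+BR 1. In the comparisons of DBP+agent and DBP+BR with DBP, treatment and depth cannot be told apart. Percentages are methylated reads as a share of all reads at a CpG, or pooled over the CpGs of a region. Intervals are 95% Wilson intervals and floors are 3 reads. Both describe counting error alone, because amplified reads carry no molecular identifier and may stem from the same molecule.

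Squamous epithelium renews itself from a basal layer. Trp63 encodes p63, the transcription factor that holds basal keratinocytes in their lineage, and Krt5, Krt14 and Krt15 encode the keratins that fill these cells. Klf5 and Sox2 are transcription factors of the proliferating compartment, Ovol1 and Grhl3 act as cells leave it to differentiate and form a barrier, Sfn encodes the cell-cycle inhibitor 14-3-3 sigma, and Perp is a desmosomal protein that p63 controls. CpG-rich promoters are free of methylation in most tissues whether or not the gene is active, while gene bodies and CpG-poor promoters are often methylated.

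ERRBS cuts DNA with MspI at CCGG, whether or not the inner CpG is methylated, and reads the first 50 bases from the cut on fragments of 70 to 320 bp. What can be read therefore depends on where CCGG lies, and the CpG of the cut site itself opens the read. Over all protein-coding promoters, 86.9% held at least 1 CCGG, which reads the same on both strands, and the median was 6. Among the members the number ran from 0 in Trp63 and 1 each in Krt14 and Krt15 to 26 in Ovol1. The sequences that carry the results are printed from the mm9 genome, on the strand of the gene, with CCGG in capitals. Klf5 (chr14:99697660-99697730, upstream of the start), Grhl3 (chr4:135129145-135129245, in an intron), Sox2 (chr3:34549597-34549687, coding exon), Perp (chr10:18564417-18564487, upstream) and Ovol1 (chr19:5561235-5561405, upstream) show cut sites beside other CpGs. Sfn (chr4:133157373-133157443, coding exon) and Krt5 (chr15:101543032-101543092, coding exon) hold the well-read CpGs of the Sfn promoter and a pair of cut sites in Krt5. Krt14 (chr11:100068863-100068982) and Trp63 (chr16:25683729-25683848) are the 120 bases before the start and have no cut site.
Klf5: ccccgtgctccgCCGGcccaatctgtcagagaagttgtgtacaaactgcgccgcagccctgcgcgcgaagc
Grhl3: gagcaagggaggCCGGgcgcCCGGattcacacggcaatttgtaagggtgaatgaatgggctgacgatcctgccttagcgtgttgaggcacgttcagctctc
Sox2: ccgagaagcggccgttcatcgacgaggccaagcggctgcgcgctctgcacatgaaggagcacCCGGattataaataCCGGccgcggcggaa
Perp: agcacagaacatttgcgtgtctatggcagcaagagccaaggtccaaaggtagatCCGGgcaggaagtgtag
Ovol1: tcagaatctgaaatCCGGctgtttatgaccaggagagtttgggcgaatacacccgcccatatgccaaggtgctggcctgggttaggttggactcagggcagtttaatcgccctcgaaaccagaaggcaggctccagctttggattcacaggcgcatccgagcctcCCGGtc
Sfn: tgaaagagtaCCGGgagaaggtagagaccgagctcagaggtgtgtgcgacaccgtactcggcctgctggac
Krt5: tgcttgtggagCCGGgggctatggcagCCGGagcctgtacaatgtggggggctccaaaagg
Krt14: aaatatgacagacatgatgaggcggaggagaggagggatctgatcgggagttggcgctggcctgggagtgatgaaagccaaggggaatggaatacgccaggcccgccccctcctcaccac
Trp63: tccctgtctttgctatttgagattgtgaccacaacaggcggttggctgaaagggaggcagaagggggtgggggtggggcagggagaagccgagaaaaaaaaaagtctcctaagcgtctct

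Coverage divided the members by CpG content. The ratio of observed to expected CpGs was 0.871 in the Klf5 promoter, 0.823 in Ovol1, 0.806 in Sox2, 0.597 in Perp, 0.420 in Grhl3 and 0.395 in Sfn, against 0.247 in Krt15, 0.231 in Krt14, 0.226 in Krt5 and 0.209 in Trp63. The first 5 of these promoters had at least 20 reads in all 12 samples, and the other 5 did not. Over all genes, 86.7% of promoters with a ratio of 0.6 or more reached 20 reads in every sample, 52.1% of those from 0.3 to 0.6 did, and 4.04% of those under 0.3 did. The transcription factors other than p63, and Perp, were thus read at their promoters, and p63 and the basal keratins were largely not. In all, 148 member CpGs had at least 10 reads in at least 6 samples, 116 of them within 1000 bp of a start. Only 3 had 10 or more reads in all 12 samples, all of them in the Grhl3 intron printed above.

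The promoters of the CpG-rich transcription factors were low in methylation in every sample. Klf5 (chr14:99697910-99712624, plus strand) measured 4.98%, 5.46% and 4.03% in DMSO 1, 2 and 3, 5.06%, 5.48% and 5.19% in DBP, 5.09%, 4.56% and 3.13% in DBP+agent, and 3.79%, 4.71% and 3.89% in DBP+BR. These rest on 124 to 7251 reads per sample, and the widest interval ran from 1.73% to 9.09%. The lowest sample was DBP+agent 3, and the samples of the 4 groups overlapped except that all of DBP+BR lay below all of DBP.

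Ovol1 (chr19:5549137-5560575, minus strand), a zinc-finger repressor that ends proliferation, measured 8.09%, 11.4% and 7.18% in DMSO, 7.89%, 5.92% and 6.81% in DBP, 7.98%, 7.88% and 5.95% in DBP+agent, and 6.77%, 4.04% and 8.05% in DBP+BR. The widest interval, in DMSO 2, ran from 8.08% to 15.8%. All groups overlapped with the DBP group.

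Grhl3 (chr4:135097803-135129545, minus strand), a factor of barrier formation, measured 7.97%, 12.0% and 6.45% in DMSO, 5.45%, 11.3% and 6.15% in DBP, 13.7%, 11.6% and 6.70% in DBP+agent, and 7.23%, 10.2% and 5.77% in DBP+BR. Replicates within each group spread more widely than the group means, which ran from 7.65% in DBP to 10.7% in DBP+agent, on 62 to 2103 reads per sample.

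Sox2 (chr3:34548927-34551383, plus strand, within the longer gene Sox2ot) is a progenitor factor with a single exon. Its promoter measured 7.96%, 3.77% and 13.4% in DMSO, 6.31%, 7.38% and 8.40% in DBP, 9.51%, 9.12% and 10.2% in DBP+agent, and 6.11%, 6.68% and 4.93% in DBP+BR. The 3 DBP+agent samples lay above the 3 DBP samples, and the DMSO samples spanned both.

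Perp (chr10:18564877-18576879, plus strand) had the highest level of these 5 promoters, with 6.51%, 6.45% and 10% in DMSO, 9.34%, 14.5% and 8.64% in DBP, 11.1%, 12.0% and 18.9% in DBP+agent, and 11.4%, 17.9% and 9.84% in DBP+BR. DBP+agent 3 and DBP+BR 2 were the highest samples.

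Much of this methylation was called at the CpG of the cut site. CpGs of MspI sites held 98.6% of the 484 methylated reads in the Grhl3 promoter, 93.9% of 831 in Klf5, 85.3% of 757 in Sox2, 78.1% of 1308 in Perp and 60% of 1133 in Ovol1. In the Klf5 promoter, the CpGs of MspI sites read 18.2% to 34.0% over the 12 samples and all other CpGs read 0 to 0.98%. In Grhl3 the values were 17.0% to 38.9% against 0 to 0.676%. In Ovol1 they were 15.2% to 39.0% against 1.78% to 6.28%, in Sox2 16.7% to 53.9% against 0 to 7.46%, and in Perp 31.1% to 68.2% against 0 to 7.46%. The 2 kinds of CpG did not overlap in any sample of these 5 promoters. This division of the CpGs was chosen after their values were seen.

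**Figure D1:**
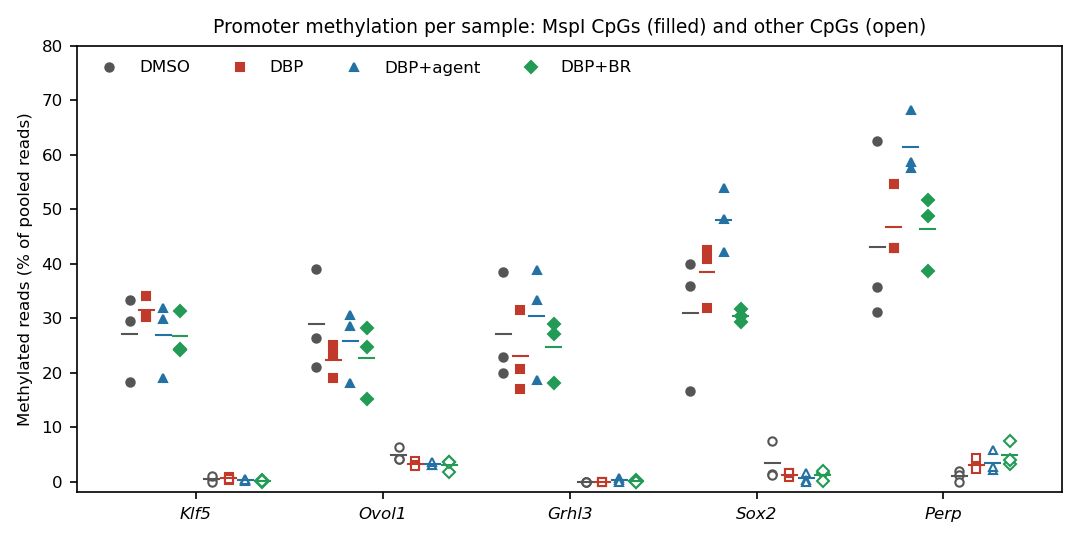
Methylated reads (% of pooled reads, vertical axis) in the promoters of 5 members (horizontal axis), with 1 point per sample, colour and shape for the group, filled points for CpGs of MspI sites, open points for all other CpGs and dashes for group means. MspI CpGs lie between 15.2% and 68.2%, and the other CpGs of the same promoters lie at or below 7.46%.

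Single CpGs a few bases apart showed the same. In the Klf5 stretch printed above, the CpG of the cut site at -237 bp averaged 20% ± 8.92 (SD, n = 11 samples with at least 10 reads), while the 4 CpGs from -202 to -187 bp averaged 0 to 0.395%. In the Grhl3 intron, the cut-site CpG at 322 bp averaged 27.4% ± 11.8 (SD, n = 12), and the CpG at 332 bp had 0 methylated of 853 reads in all samples together. In the Sox2 coding exon the cut-site CpG at 733 bp averaged 22.6% ± 15.0 (SD, n = 10), against 6.18% ± 10.8 at 702 bp, where 1 sample reached 30.3%, 0.625% ± 1.98 at 708 bp and 0 at 689, 692 and 710 bp. At 689 bp all samples together had 4 methylated of 385 reads, those 4 in samples with under 10 reads. At the Ovol1 start the cut-site CpG at 41 bp averaged 25.7% ± 12.9 (SD, n = 11), and the CpG at 35 bp averaged 0.478% ± 1.59. Of the 116 promoter CpGs with enough reads, 25 belong to MspI sites and each averaged over 10%, with a median of 29.5%. The other 91 had a median of 0.206%, 80 of them averaged under 5%, and 32 had no methylated read. The highest-averaging promoter CpGs were cut sites at -42 bp in Klf5 (40.8%, n = 8), -61 bp in Grhl3 (29.5%, n = 6) and -68 bp in Sox2 (59.1%, n = 6). In Sfn and Krt5 they were the cut sites at 652 bp (24.8%, n = 8) and 259 bp (64.3%, n = 6).

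The pattern held across the series. In the 9970 promoters whose other CpGs were methylated in under 2% of at least 200 reads, MspI CpGs read 25% to 33.4% in the 12 samples, and other CpGs, which had to be low there, read 0.504% to 0.837%. The highest of the 12 was DBP+agent 1. The reason for the higher calls at cut sites was not tested.

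**Figure D2:**
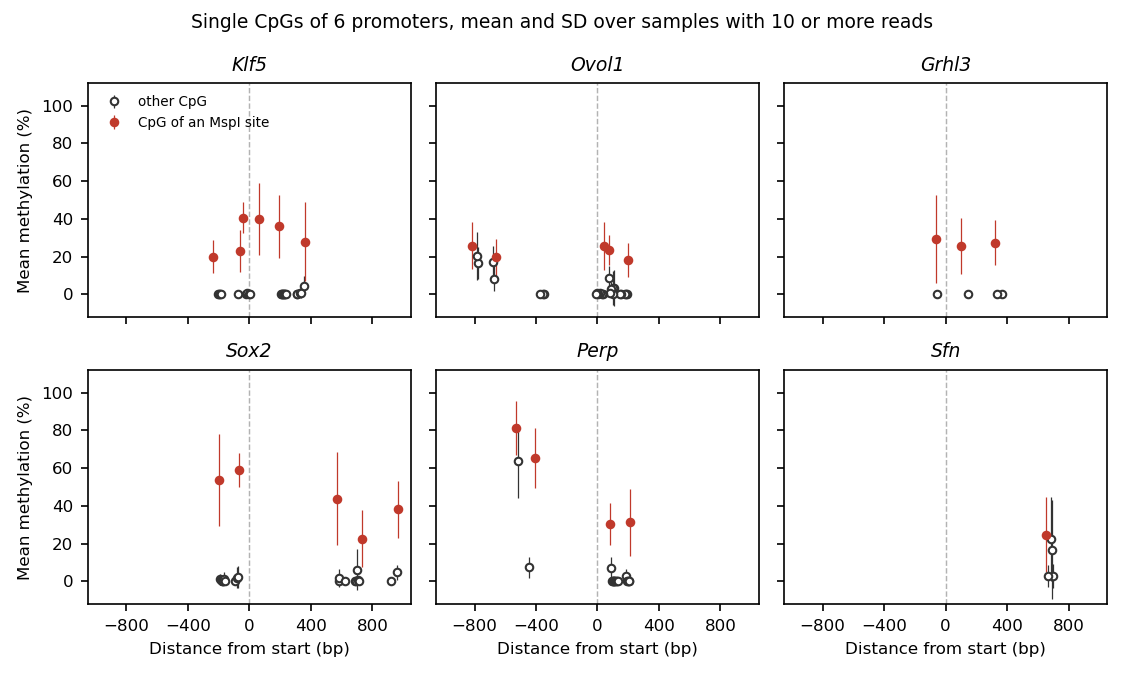
Mean methylation (%, with SD over samples with 10 or more reads) of single CpGs against distance from the start (bp) in 6 promoters, with red filled points for CpGs of MspI sites and open points for other CpGs. Open points lie near 0 around the starts of Klf5, Ovol1, Grhl3, Sox2 and Perp, and rise towards the upstream side in Ovol1 and Perp.

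Away from the start, methylation was also read at CpGs outside cut sites. In Ovol1 the other CpGs from -1000 to -501 bp read 16.7% of 2133 reads, against 0.870% from -500 to -1 bp and 0.858% from 0 to 499 bp. Both CpGs at -776 and -786 bp, in the printed stretch, averaged 16.7% ± 8.62 and 20.2% ± 12.6 (SD, n = 10), close to the 25.9% ± 12.4 of the cut-site CpG at -814 bp. Farther out, the CpG at -1987 bp, which belongs to a cut site, averaged 85.9% ± 8.90 (SD, n = 11). In Perp the CpG at -514 bp averaged 63.7% ± 19.5 and the cut-site CpG at -533 bp 81.3% ± 14.2 (SD, n = 6 each). The CpG at -445 bp averaged 7.38% ± 5.41 (SD, n = 10), between these and the unmethylated stretch from 95 bp. In Grhl3 the CpG at -1372 bp averaged 80.7% ± 7.4 (SD, n = 6), and from -53 bp to 364 bp no CpG outside a cut site averaged above 0.403%. Around the starts of these 3 genes an unmethylated stretch was thus bounded upstream by methylated CpGs.

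Sfn (chr4:133156471-133158083, minus strand) was well read at 1 place, the printed stretch of its coding exon, where 5 CpGs lie from 652 to 699 bp and are covered by the same reads. Its pooled promoter window measured 10.6%, 16.1% and 0% in DMSO, the last on 12 reads, which allow up to 25% by the floor, 17.3%, 18.5% and 27.3% in DBP, 17.0%, 3.94% and 30.6% in DBP+agent, and 19.2%, 0% and 7.92% in DBP+BR, where the 0 of 73 reads allows up to 4.11%. Within DBP+agent and DBP+BR the samples spread more widely than the group means differed. At 693 bp, a CpG outside the cut site, DBP+agent 3 had 16 methylated of 19 reads, or 84.2%, with an interval from 62.4% to 94.5%, while DBP+agent 2 had 0 of 41 reads.

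The basal keratin genes were thinly read. In Krt5 (chr15:101537501-101543322, minus strand) 3 MspI fragments of readable length touch the promoter, and 9 samples reached 20 reads. Its promoter was methylated in all of them, at 69.7%, 31.4% and 70.4% in DBP, 60.2%, 55.6% and 65.1% in DBP+agent, and 51.7%, 38.6% and 55.0% in DBP+BR. The DMSO samples, with 6 to 17 reads, gave 64.7%, 66.7% and 66.7%. DBP 2 and DBP+BR 2 were the lowest and the remaining samples lay above 50%. Unlike in the CpG-rich members, CpGs outside cut sites were methylated beside the start too, with 50.4% of 605 reads from 0 to 499 bp against 62.4% of 627 reads at cut-site CpGs. In the Krt5 body they read 12.6% of 214 reads against 54.5% of 299. Krt5 had a higher level in its promoter than in its body in all 7 samples with 20 reads in both, with body minus promoter running from -34.5 to -5.06 points. Over all genes, the 317 promoters with a CpG ratio under 0.3 that were read in every sample had a median of 51.3%.

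Krt14 (chr11:100064476-100068862, minus strand) and Krt15 (chr11:99993072-99997263, minus strand) have no MspI fragment of readable length at the promoter and had at most 6 promoter reads in a sample, so no level is given. The Krt15 body was read, at 58.8% in DMSO 1, 40%, 73.1% and 71.7% in DBP, 57.0%, 82.4% and 57.4% in DBP+agent, and 58.4% and 73.3% in DBP+BR 1 and 3, with 20 to 495 reads. In the Krt14 body only DBP+agent 1, with 0 of 29 reads, and DBP+BR 1, with 77.0% of 74 reads, had over 20 reads, so samples differed widely. The floor of the former is 10.3%.

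Trp63 (chr16:25683849-25892188, plus strand) has 2 starts 118153 bp apart, the second for the transcripts with the short N-terminus that basal keratinocytes use. The window of the first start holds 16 CpGs and no MspI site and had 1 read in all 12 samples together. The window of the second holds 19 CpGs and no MspI site and had none. The methylation of both Trp63 promoters therefore was not measured, and its calls come from the body.

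The bodies of Trp63, Klf5 and Grhl3 were methylated in most reads in all samples except the Grhl3 body in DBP+BR 1, and that of Sox2 was not. The Trp63 body measured 84.1%, 85.1% and 80.8% in DMSO, 82.5%, 79.4% and 88.7% in DBP, 89.1%, 87.7% and 80.2% in DBP+agent, and 64.4%, 84.4% and 80% in DBP+BR, on 26 to 567 reads. Its 2 well-read CpGs, in an intron at 69102 and 69119 bp, averaged 90.9% ± 9.18 and 86.7% ± 9.94 (SD, n = 11 each). All samples except DBP+BR 1 lay above 79%. Outside cut sites the Trp63 body read 55.6%, 74.1% and 73.0% in DBP+BR on 58 to 322 reads, below the 79.2%, 87.5% and 93.1% of DBP on 24 to 53 reads, and DBP+agent read 87.7%, 89.4% and 67.2%. At cut-site CpGs DBP+BR read 75.9% to 90.2% and overlapped with DBP. The DMSO samples were too thinly read outside cut sites for the edgeR fit, and 4.74% of the 6580 bodies that could be fitted there were lower in DBP+BR than in DBP without overlap.

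The Klf5 body measured 73.1%, 83.8% and 85.7% in DMSO, 62.9%, 62.9% and 63.6% in DBP, 73.3%, 58.2% and 55.3% in DBP+agent, and 66.8%, 83.1% and 73.3% in DBP+BR, on 22 to 367 reads. All DMSO samples lay above all DBP samples. The Grhl3 body measured 64.4%, 68.4% and 69.0% in DMSO, 60.4%, 61.0% and 62.8% in DBP, 65.7%, 61.1% and 61.9% in DBP+agent, and 40.4%, 77.2% and 60.4% in DBP+BR, on 113 to 2500 reads. DBP+BR held both the lowest and the highest sample. In the Ovol1 body, 10 samples had at least 20 reads and ran from 35.0% in DBP+BR 2 to 73.0% in DBP+BR 1.

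**Figure D3:**
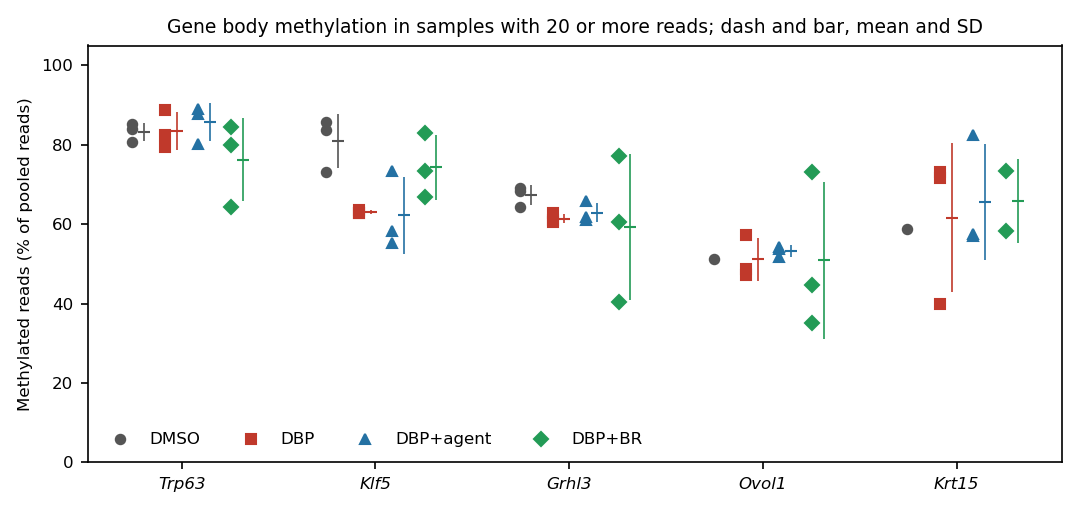
Methylated reads (% of pooled reads, vertical axis) in the bodies of 5 members (horizontal axis), with 1 point per sample with 20 or more reads, colour and shape for the group, and a dash with a bar for mean and SD where a group has at least 2 such samples. Most points lie between 50% and 90%, and DBP+BR 1 is the lowest point of Trp63 at 64.4% and of Grhl3 at 40.4%.

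DBP+BR 1, the deepest library, was the lowest sample for the Trp63 and Grhl3 bodies and the highest for Ovol1. The part of its depth in these values was not tested. Body exceeded promoter in all 12 samples in Klf5, by 52.1 to 81.7 points, in all 12 in Grhl3, by 33.2 to 67 points, and in all 10 with enough reads in Ovol1, by 31.0 to 66.3 points. Sox2 differed: the part of its gene beyond 1000 bp was higher than the promoter in 5 of 11 samples, with a median difference of -0.03 points. The well-read CpGs of this part, from 1070 to 1115 bp, lie in the coding exon. Without MspI CpGs this part was higher in 8 of 11 samples, with a median difference of 0.761 points. Within the Grhl3 body a CpG at 28638 bp had 0 methylated of 560 reads, 39 bases from a cut-site CpG that averaged 36.2% ± 15.4 (SD, n = 10), while intronic CpGs at 8598 and 8586 bp averaged 98.2% and 87.0%.

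Among all promoters with 20 reads in every sample the members were not extreme when all CpGs were pooled. The median of the 10507 promoters was 5.93%, and Klf5 at 4.61% stood at percentile 27.6, Ovol1 at 7.33% at 66.2, Sox2 at 7.81% at 70.1, Grhl3 at 8.72% at 75.7 and Perp at 11.4% at 84.1. None of the 5 exceeded 20%, against 9.03% of all promoters. Without MspI CpGs the median of 9556 promoters was 0.698%. Grhl3 then fell to 0.0938% and percentile 3.14, Klf5 measured 0.370% at percentile 27.3 and Sox2 1.62% at 74.3. Perp at 3.11% and Ovol1 at 3.58% stayed at percentiles 85.7 and 87.3. The order of the members thus changed with the CpGs pooled, and Grhl3 moved from second highest to lowest of the 5.

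**Figure D4:**
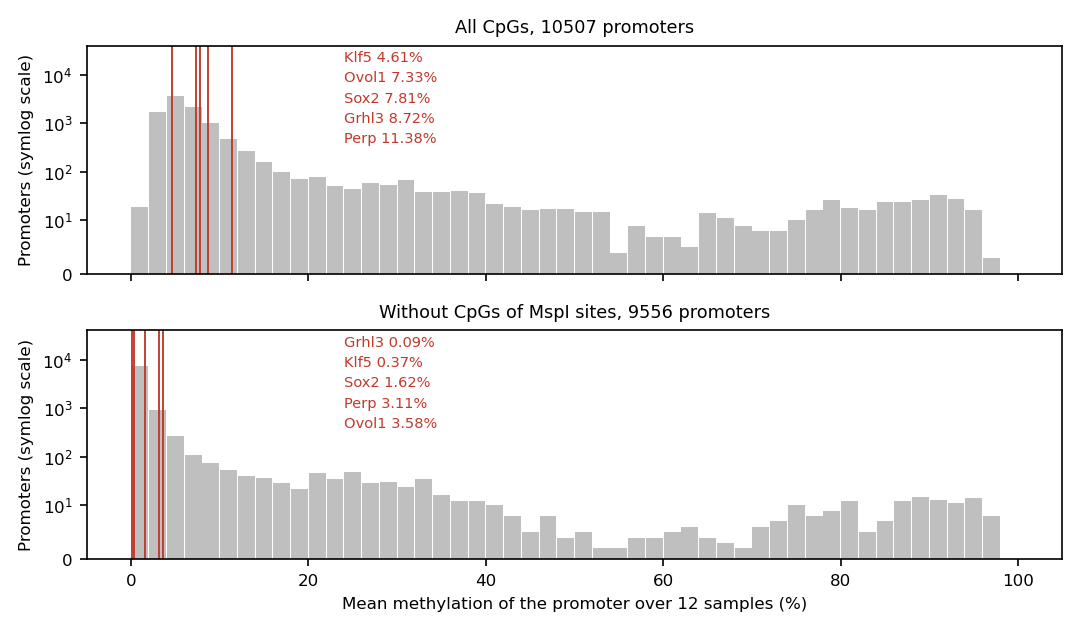
Number of promoters (symmetric log scale, vertical axis) by mean methylation over 12 samples (%, horizontal axis), for all CpGs above and without CpGs of MspI sites below, with red lines for 5 members. Grhl3 lies at 8.72% above and at 0.0938% below, and no member exceeds 11.4% in either.

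The first comparison asked whether DBP altered methylation of these genes against the vehicle. Of the 8 member regions with enough reads, the Klf5 body and the Grhl3 body were lower in DBP than in DMSO in every sample, without passing the test. The Klf5 body measured 63.1% ± 0.44 in DBP and 80.9% ± 6.81 in DMSO (SD, n = 3 each), a difference of -17.7 points. The Grhl3 body measured 61.4% ± 1.21 and 67.3% ± 2.53 (SD, n = 3 each), a difference of -5.90 points. Outside cut sites the Grhl3 body measured 63.3% ± 1.84 in DBP and 65.5% ± 6.62 in DMSO, a difference of -2.22 points with overlapping samples, and at cut-site CpGs the difference was -9.57 points. The Trp63 body differed by 0.221 points, and the promoters by -2.01 points in Ovol1, -1.18 in Grhl3, -1.02 in Sox2, 0.420 in Klf5 and 3.18 in Perp, with samples of both groups overlapping in each. Outside cut sites the groups did not overlap in 2 promoters. There Ovol1 measured 3.27% ± 0.50 in DBP and 4.86% ± 1.23 in DMSO, lower as 2.53% of 9556 promoters were, and Perp 3.05% ± 1.09 and 1.09% ± 1.01, higher as 6.13% were (SD, n = 3 each, exact permutation test, two-sided, p = 0.1 in both, edgeR adjusted p of 0.878 and 0.840).

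A negative binomial model of methylated and unmethylated reads in edgeR, fitted to all 12 samples and adjusted over all promoters or all bodies, called no member region in this comparison, nor in either of the others. It called 0.0% of 10507 promoters in each comparison, and of 8845 bodies 0.0% here, 0.0% for DBP+agent and 0.0113% for DBP+BR against DBP. The Klf5 body was the 1 member region with an unadjusted edgeR p under 0.05, and its adjusted p was 1.0. By the exact permutation test, two-sided, the Klf5 and Grhl3 bodies both gave p = 0.1, the smallest that 3 against 3 samples allow. Bodies without overlap and lower in DBP made up 7.44% of all bodies, and 4.26% of bodies had an unadjusted edgeR p under 0.05. In Klf5 the CpGs outside cut sites gave 66.7%, 78.9% and 80% in DMSO and 64.9%, 53.3% and 58.3% in DBP, on 12 to 77 reads.

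At single CpGs, 11 member CpGs in Ovol1 and Grhl3 were read deeply enough in all 6 samples and none was called, at a q-value under 0.01 by logistic regression and a difference over 25 points, where 0.0578% of 53618 CpGs were, or over 10 points, where 0.11% were. An unadjusted p under 0.05 was reached by 1 of the 11, against 10.8% of all. This was the Ovol1 CpG at 41 bp (chr19:5560534-5560535), a cut site in the untranslated first exon. It read 27.8%, 34.6% and 27.8% in DMSO and 10%, 13.3% and 15.4% in DBP, on 10 to 26 reads, a pooled difference of -18.1 points (logistic regression q = 0.363, edgeR q = 0.970). The groups did not overlap. The Grhl3 CpG at 322 bp differed by -12.9 points (q = 0.633) with overlapping samples, and the Ovol1 CpG at -3 bp by -2.74 points (q = 0.718). The median of the 11 differences was -1.37 points, against 0 over all CpGs tested, and the median size was 1.37 points against 1.80. This median rests on neighbouring Ovol1 CpGs from -9 to 35 bp, which share reads. They had at most 1 methylated read in a DMSO sample and none in DBP, so they are not independent values.

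The second comparison set DBP+agent against DBP. Gains were called at 2 promoter CpGs, in Perp and Ovol1, both cut sites. The Perp CpG at -405 bp (chr10:18564472-18564473), upstream of the gene, read 57.9%, 72.2% and 60% in DBP on 10 to 36 reads and 87.0%, 76.2% and 91.1% in DBP+agent on 45 to 92 reads. All DBP+agent samples were higher than all DBP samples, by 18.8 points pooled (logistic regression q = 0.00147). In DMSO the same CpG read 53.8% in sample 1, and 3 reads each in samples 2 and 3.

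The Ovol1 CpG at 41 bp read 37.6%, 53.7% and 16.2% in DBP+agent, against the 10%, 13.3% and 15.4% of DBP, 21.8 points higher pooled (q = 0.00465). DBP+agent 3 lay close to the highest DBP sample. This contrast and that with DMSO share the DBP samples, so their opposite signs are not independent. The third lowest p was the Sfn CpG at 699 bp, 8.85 points higher (q = 0.0173), with 7 of 36, 0 of 41 and 2 of 19 reads methylated in DBP+agent and none of 36 in DBP.

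In this comparison 49 member CpGs in 7 genes were tested, 0 were called over 25 points, where 0.755% of 127381 CpGs were, and 2 over 10 points, where 5.42% were, 2.92% of all CpGs being higher in DBP+agent as these 2 were. Of the 49, 9 had an unadjusted p under 0.05, against 27.0% of all. With 2 of 49, the share called over 10 points is near that of all CpGs. With the edgeR model, which takes the spread between samples into account, the Perp and Ovol1 CpGs both gave q = 0.936, and without scaling of coverage their q-values were 0.0482 and 0.0618. The Perp call was lost without DBP+agent 1, DBP+agent 3 or DBP 1, at 14.0 to 16.5 points and q-values by logistic regression of 0.0160 to 0.0527. The Ovol1 call was lost without any one sample other than DBP+agent 3, at 15.6 to 22.9 points and q-values of 0.0143 to 0.0557. Of the 10 member CpGs at cut sites the median size of the difference was 9.66 points, and of the 39 others it was 0 points. Most of these 39 read at or near 0 in both groups, and 24 of the 49 had no difference. Cut-site CpGs made up 28.3% of all CpGs tested and 48.0% of those called over 10 points. Neither contrast held the methylation level equal, so kind of CpG and level cannot be told apart in them.

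Of the regions, the Sox2 promoter was higher in DBP+agent than in DBP in all samples, at 9.60% ± 0.54 against 7.36% ± 1.04 (SD, n = 3 each, exact permutation test, two-sided, p = 0.1, and edgeR adjusted p of 1.0), as 6.3% of promoters were. Without MspI CpGs the Sox2 promoter measured 0.597% ± 0.829 in DBP+agent and 1.28% ± 0.47 in DBP, the opposite direction, with overlapping samples. Grhl3 was 3.02 points higher and Perp 3.16 points higher with overlapping samples, and Klf5 was 0.983 points lower.

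The third comparison set DBP+BR against DBP. The coding exon of Sfn read less methylation in DBP+BR at a pair of CpGs 6 bases apart and outside cut sites, which are covered by the same reads. At 693 bp (chr4:133157390-133157391) DBP read 16.7%, 15.4% and 45.5% on 11 to 13 reads, and DBP+BR had no methylated read of 13, 15 and 50, which allow up to 23.1%, 20% and 6%. The pooled difference was -25 points (logistic regression q = 8.13e-09). At 687 bp (chr4:133157396-133157397) DBP read 25%, 23.1% and 45.5% and DBP+BR 23.1%, 0% and 0%, a difference of -29.0 points (q = 8.37e-08). The groups did not overlap at 693 bp, and at 687 bp DBP+BR 1 equalled DBP 2 at 23.1%. In DMSO 1 and 2 the CpG at 693 bp read 1 of 21 and 0 of 11, below all DBP samples, and in DBP+agent it ran from 0 to 84.2%.

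The Klf5 cut-site CpG at -237 bp (chr14:99697673-99697674) read 31.8%, 15.0% and 29.6% in DBP on 20 to 27 reads and 16.7%, 19.6% and 3.51% in DBP+BR on 46 to 60 reads, a pooled difference of -13.6 points (q = 0.00408) with overlapping samples. Without DBP+BR 3 the difference was -7.64 points (q = 0.263), and without DBP+BR 1, DBP 1 or DBP 3 it was -15.2 to -10.8 points with q-values of 0.0337 to 0.0539, so that the call was lost in each.

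In all, 32 member CpGs in 7 genes were tested. The Sfn CpG at 687 bp was called over 25 points, where 0.998% of 104443 CpGs were and 0.673% were lower as it was, and these 3 over 10 points, where 8.61% were and 4.95% were lower. Of the 32, 8 had an unadjusted p under 0.05, against 32.3% of all. With 3 of 32, the share called over 10 points is near that of all CpGs. The Sfn CpG at 693 bp lay at the limit of 25 points. Without scaling of coverage the logistic regression q-values in Sfn were 0.000393 at 693 bp and 0.00615 at 687 bp. The Klf5 call was lost without scaling (q = 0.156) and at 5 reads per cytosine (q = 0.0173). In the edgeR model none of the 3 was called, with q = 0.168 and q = 0.581 in Sfn and q = 1 in Klf5. That model called 0.0% of all CpGs in this comparison, with 6067 at an unadjusted p under 0.05, 0.0% in the comparison of DBP with DMSO and 0.00236%, or 3 CpGs, in that of DBP+agent with DBP. Without DBP 3 the Sfn difference at 693 bp was the smallest in size of the 6 that leave out a sample, at -15.6 points, and no member CpG was called over 25 points. The call at 687 bp over 25 points was lost without DBP 3, at -22.5 points, and without DBP+BR 3, at -23.8 points (logistic regression q = 0.0118), where the call over 10 points was lost too.

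**Figure D5:**
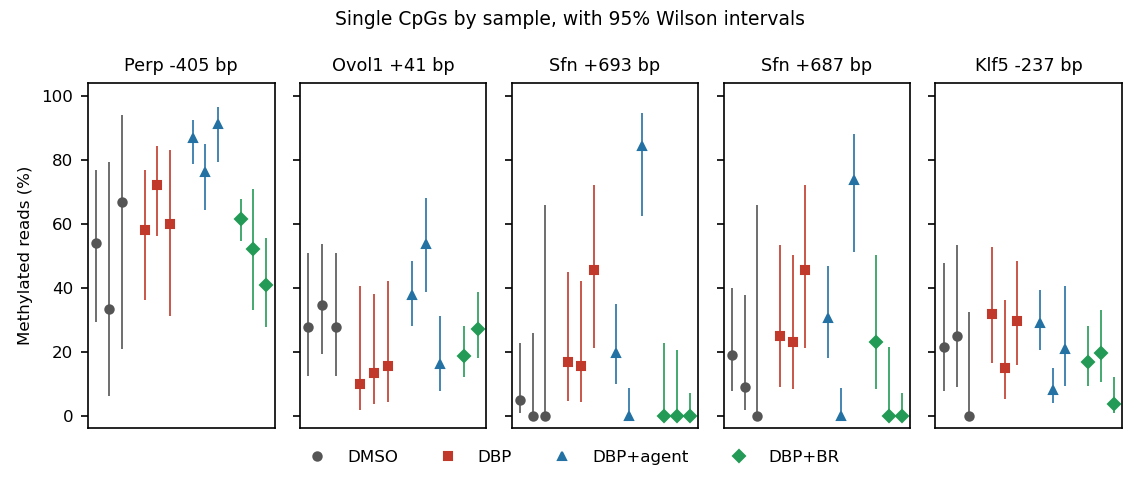
Methylated reads (%, vertical axis) at the 5 CpGs called over 10 points in a comparison with DBP, with 1 point per sample in the order of the groups, colour and shape for the group and bars for 95% Wilson intervals. Intervals are wide in DMSO and DBP, and DBP+agent 3 stands at 84.2% at the Sfn CpG at 693 bp, where all DBP+BR samples are at 0.

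Among the regions the Klf5 promoter was lower in DBP+BR than in DBP in all samples, at 4.13% ± 0.50 against 5.24% ± 0.21 (SD, n = 3 each, edgeR adjusted p of 1.0), as 7.75% of promoters were. Outside cut sites it measured 0.154% ± 0.142 against 0.562% ± 0.249, also without overlap, as 4.4% of promoters were. The Klf5 body was higher, at 74.4% ± 8.22 against 63.1% ± 0.44 (edgeR adjusted p of 1.0), as 4.27% of bodies were. Its DBP values are those of the first comparison, so the higher value here and the lower value there are not independent. The exact permutation p was 0.1 for both. Over the 4 groups together no member region was called by edgeR, against 0.00952% of promoters and 0.0339% of bodies. The Klf5 body again had the lowest value, with an adjusted p of 0.789.

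Of the 24 tests of a member region against its comparison group, 5 had groups that did not overlap, those in the Klf5 promoter, the Klf5 body in 2 comparisons, the Grhl3 body and the Sox2 promoter. Counted in either direction, the groups did not overlap in 10.8% of all promoters and 12.6% of all bodies for DBP against DMSO, in 9.11% and 11.7% for DBP+agent against DBP, and in 10.1% and 8.92% for DBP+BR against DBP. The 24 tests share samples and genes.

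The wider squamous programme was read the same way from a list of 46 other genes, among them the suprabasal keratins Krt13 and Krt4, desmosomal genes such as Dsp and Pkp1, and the hemidesmosomal genes Itga6 and Itgb4. Of these, 44 were in the annotation and 25 had a promoter with 20 reads in every sample. Their median was 8.32%, against 7.81% for the 5 members. Of the 25, 5 exceeded 20%, the highest at 88.5%, against 9.03% of all promoters. Without MspI CpGs the median of 23 was 1.62%, as in the members. There 4 of the 23 exceeded 20%, against 5.17% of all promoters. By edgeR, 0 of 25 were called in each comparison, with 1, 0 and 0 at an unadjusted p under 0.05 for DBP, DBP+agent and DBP+BR. Over all promoters the shares at an unadjusted p under 0.05 were 3.4%, 2.73% and 4.44%.

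Marker genes of the other cells that the tissue holds had few readable promoters. Of 12 muscle genes 3 were read, with a median of 12.3%, of 12 connective tissue genes 4 with 14.6%, of 12 endothelial genes 3 with 4.55%, of 12 immune genes 2 with 36.4%, and of 4 glial genes 2 with 10.9%. The immune promoters stood at 8.92% and 63.8%, and the highest muscle promoter at 53.4%. Without MspI CpGs the medians were 7.01% for muscle, 1.24% for connective tissue, 1.85% for endothelium and 4.60% for glia. The 1 immune promoter left there read 2.76%. None of these promoters was called in any comparison, and 1 connective tissue promoter had an unadjusted edgeR p under 0.05 for DBP against DMSO. Group medians of the muscle list were 12.4% in DMSO, 12.2% in DBP, 13.9% in DBP+agent and 12.6% in DBP+BR, and those of the 5 members 8.38%, 7.36%, 9.60% and 6.29%. Without MspI CpGs the medians of the 5 members were 1.09%, 1.28%, 0.597% and 1.25% in the same order, so that DBP+agent went from the highest group to the lowest. Group medians ran from 3.97% in DBP to 7% in DBP+agent for the endothelial list, from 7.95% in DMSO to 13.3% in DBP+BR for the glial list, from 13.1% to 15.0% for connective tissue and from 35.4% to 37.3% for the immune list. The part of tissue composition in the members' values was not tested.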

How the data were processed

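DNA was digested with MspI, size-selected and bisulfite-converted, and sequenced from 1 end, 6 samples to a lane, whose assignment the labels do not give. The authors used Trim Galore 0.3.3 for trimming and Bismark 0.10.1 for alignment to mm9 and methylation calls. Their deposited files give, per CpG cytosine, unnormalized counts of methylated and of unmethylated reads. The deposited percent column was not used. All positions were CpG cytosines of the reference.

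The members and lists were chosen with earlier results of these data known. Single CpGs followed the parameters in the study's methods: at least 10 reads and at most the 99.9th percentile per cytosine, coverage scaled between samples to the highest median, both strands summed, and presence in all 6 samples. Methylated and unmethylated reads were fitted by logistic regression, tested by likelihood ratio and adjusted (Benjamini-Hochberg) over all CpGs. Promoters and bodies with at least 20 reads in every sample were tested in edgeR 4.0.16 (R 4.3.3) with a sample effect and a likelihood ratio test, adjusted over all regions of that kind. Tables came from Python 3.11.15 (NumPy 2.4.6, pandas 2.3.3, SciPy 1.17.1). Named CpGs are those called and, up to 3 per comparison, those with the smallest p, with the highest promoter CpG of each member. CpGs shown beside cut sites, in flanks and in bodies were picked after their values were seen.

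On simulated data for DBP against DMSO, 200 of 53618 CpGs were shifted by 50 points and the regression recovered 196, with 0 false calls. These simulated reads had no spread between samples and no scaling of coverage, unlike the tested data. The recovery and the count of false calls therefore do not carry over to the regression as used. Of 200 regions shifted by 25 points, edgeR recovered 161 among 10507 promoters, with 25 false calls, and 133 among 8845 bodies, with 10 false calls. These reads were drawn with the same assumed spread between samples in every region, which was not estimated from the data. The shift was put into all samples outside DMSO. The recovery and the false calls therefore do not carry over to the region tests as run. Samples with the same number did not deviate together, with correlations of deviations from -0.02 to 0.01. Alternatives changed the coverage minimum, strand merging, scaling, test, thresholds, promoter width, weighting, replicate block and samples. Leaving out CpGs of MspI sites, and DBP+BR 1 for levels, was added after seeing the data.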

Additional observations from a re-analysis of the deposited data

How the results depend on the processing

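No member promoter or body was called in any comparison with DBP or with DMSO under any alternative run, including 5 or 50 reads per region, 500 bp promoters, the quasi-likelihood test, each sample left out and removal of MspI CpGs, which left the Trp63 and Klf5 bodies with too few reads to be fitted. For DBP against DMSO, member CpGs called stayed at 0 under all alternatives run, and at 20 reads per cytosine no member CpG was left to test. For DBP+agent against DBP, the 0 CpGs over 25 points became 2 at 5 reads per cytosine and 0 to 2 with a sample left out. The 2 over 10 points became 4 at 5 reads and 0 at 20 reads, without scaling or with edgeR, and 0 to 4 with a sample left out. For DBP+BR against DBP, the 1 over 25 points became 2 at 5 reads or with strands merged first, 0 at 20 reads or with edgeR, and 0 to 2 with a sample left out. The 3 over 10 points became 5 at 5 reads, 2 without scaling, 1 at 20 reads and 0 with edgeR, and 2 to 5 with a sample left out. Over all CpGs the DBP+agent calls over 10 points fell from 6906 to 1502 without scaling, and the DBP+BR calls from 8990 to 1921.

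Promoter levels moved by more than 1 SD without MspI CpGs, to 0.370% in Klf5, 3.58% in Ovol1, 0.0938% in Grhl3, 1.62% in Sox2 and 3.11% in Perp, and in Ovol1 to 4.35% with 500 bp on either side, which leaves out its methylated upstream CpGs. Without DBP+BR 1 they were 4.69%, 7.38%, 8.85%, 7.97% and 11.4%. No difference changed sign at a named CpG. The Klf5 CpG lost its call with any of 4 samples left out, the Ovol1 CpG with 5, the Perp CpG with 3 and the Sfn CpG at 687 bp its call over 25 points with 2, DBP 3 and DBP+BR 3.

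The replicate numbers share only a number across groups. With a replicate block, 0, 0 and 1 member CpGs were called over 25 points and 0, 2 and 4 over 10 points, and 0 member regions. The cause of these changes was not tested. Depth limits single CpGs, since at 10 reads a floor of 3 is 30% of the reads.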
